A study of Mus musculus with 12 samples.

Results

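The comparison was between MEFs treated with the OCKS cocktail, on day 4, and control MEFs, and it took 6 of the 12 arrays of the series, 3 per group. MEFs are fibroblasts grown from mouse embryos. Here they came from mid-gestation embryos of Vasa::RFP Tg crossed with Oct4_delta_PE-GFP Tg mice on the C57BL6/J background, and the labels give them as male. The treated cells received a plasmid that carries Oct4, c-Myc, Klf4 and Sox2 in tandem behind the CAG promoter (pPB-CAG-OCKS). With it came 3 inhibitors of histone-modifying enzymes named chem, which were tranylcypromine (against H3K4 demethylation), BIX-01294 (against H3K9 methylation) and DZNep (against H3K27 methylation). VA5, a mix of valproic acid, which inhibits histone deacetylases, and an inhibitor of the TGF-β receptor ALK5, and siRNA against Dnmt1 completed the cocktail. The other 6 arrays held MEFs given the same agents with separate Oct4 and Sox2 vectors (OS-treated MEFs) and female PGCs, the precursors of the gametes. These PGCs were of a later embryonic day than the male PGCs whose upregulated genes the study compared with those of treated MEFs. The principal component analysis of the study took in both the male and the female PGCs. The study set out to find which agents make germ cell genes active in somatic cells.

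The design limits what the comparison can say about any 1 agent. Vectors, inhibitors and siRNA were given together, so that their effects cannot be told apart. Both a serum medium and a serum-free medium with added growth factors are named for MEFs, without stating which each group had, and it is not given whether control MEFs were mock-transfected. Each array was hybridized with RNA of a separate biological replicate, and no slide held OCKS-treated and control MEFs together.

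Fibroblasts in culture make collagen, hold on to it through integrins and pull on it with actin and myosin cables. TGF-β keeps that contractile state switched on. DNA methylation, maintained by Dnmt1, and methylation of histone H3 at lysine 9 and lysine 27 keep genes of other lineages silent in them, and histone deacetylases do the same by removing acetyl groups.

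Of 18 fibroblast markers with a probe, 17 were well above background on all arrays of each group. All 18 were so on the PGC arrays as well, so that detection does not tell fibroblasts from other cells here and the label was checked by level. Levels are given throughout as log2 signals relative to the 75th percentile of the array, so that 0 is the signal of a bright probe and a difference of 1 is a 2-fold change. The levels of decorin (Dcn), a collagen-binding proteoglycan, were 4.10, 4.12 and 4.57 in control MEFs and 6.16, 7.05 and 6.21 in OCKS-treated MEFs. For type I collagen (Col1a1) they were 6.50, 6.06 and 6.10 in control MEFs and 3.64, 5.03 and 4.09 after treatment. Summed over the 18 fibroblast markers, linear signals relative to the 75th percentile were between 711 and 1030 in control MEFs and between 407 and 649 in OCKS-treated MEFs, against 16.9 to 17.45 in PGCs. Leukocyte markers were detected as well. All 22 were well above background on every control array, against 14 on every OCKS array, while Cx3cr1 and Spi1 were not above background on any OCKS array. Their summed signal was 29.5 to 32.5 in control MEFs and 6.25 to 7.78 in OCKS-treated MEFs. In such bulk RNA, fewer cells of a type and less RNA per cell cannot be told apart.

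Of 16151 genes tested, 1766 rose in OCKS-treated MEFs (10.9%), 2292 fell (14.2%) and 12093 did not pass. The test took genes whose probe stood well above background on all arrays of either group. A call needed an adjusted p under 0.001 by limma, corrected after Benjamini and Hochberg, and a change of 2-fold or more. In 71.3% of the genes tested the 3 levels of 1 group lay apart from the 3 levels of the other, so that groups that do not overlap are common here. The signs rest in part on the scaling. The median log2 difference over all genes was -0.189, and 0.155 when the arrays were scaled to 8 spike-in probes, with 2133 genes risen (13.2%) and 998 fallen (6.18%). Differences below are on the 75th percentile scale, and the spike-in count is given where it moves a count by over 1.5 times. Counts for any list of genes are to be read against the 10.9% risen and 14.2% fallen over all genes tested.

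**Figure D1:**
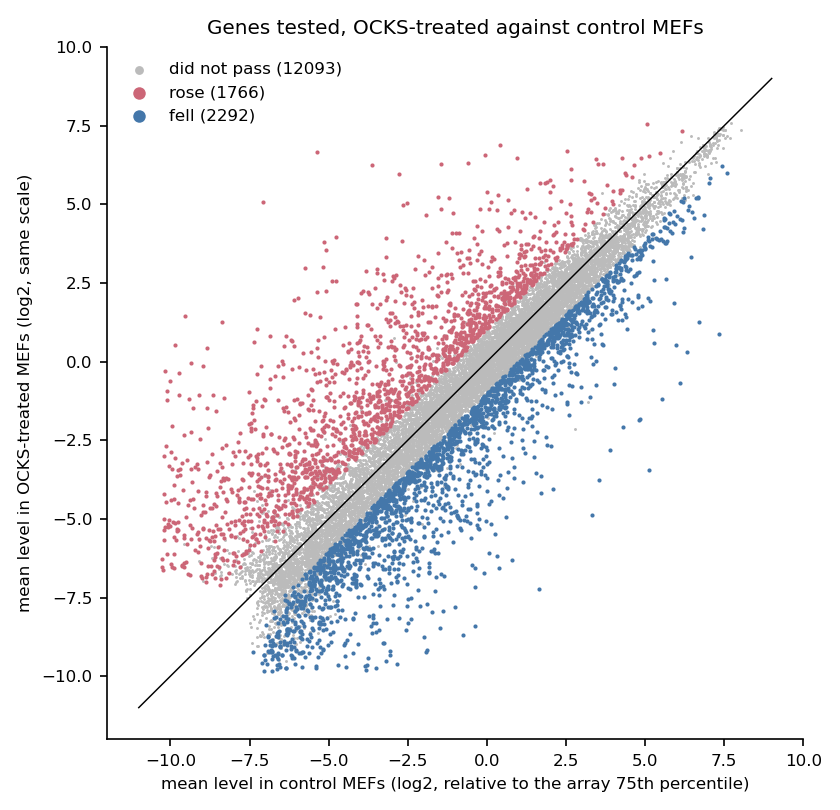
Each point is 1 of the 16151 genes tested, with its mean level over 3 control arrays on the x axis and over 3 OCKS arrays on the y axis, both log2 relative to the array's 75th percentile. The line marks equal levels, and the 1766 risen and 2292 fallen genes lie on its upper and lower side.

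Dnmt1, the maintenance DNA methyltransferase targeted by the siRNA, had levels of -1.20, -0.98 and -1.36 in control MEFs and -3.84, -3.22 and -3.55 in OCKS-treated MEFs. It fell by 2.36 on the log2 scale (SE 0.18, adjusted p = 1.99e-06, limma), and the groups did not overlap. Of the 4 factors on the plasmid, Myc alone passed, with levels of 0.40, 0.23 and 0.42 in control MEFs and 1.06, 2.11 and 1.72 after treatment. Its difference of 1.28 had an adjusted p of 0.000839 (limma) and missed the thresholds in 19 of 27 alternatives. In OS-treated MEFs, which were given no Myc vector, Myc had levels of 2.13, 1.89 and 1.67, so that a rise also occurred without it. The levels of Pou5f1, which encodes Oct4, were -7.63, -7.05 and -6.46 in control MEFs and -5.83, -7.00 and -5.86 in OCKS-treated MEFs. These overlap (difference 0.82, SE 0.39, adjusted p = 0.0842, limma). Sox2 (difference 1.28, adjusted p = 0.105, limma) and Klf4 (-0.23, adjusted p = 0.307, limma) did not pass either. Whether the probes of the 4 factors lie in the coding sequence that the plasmid carries is not known, so these levels check neither delivery nor the labels.

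Among the genes of the enzymes and receptors that the inhibitors and the siRNA act on, 3 of 17 tested rose and 2 fell. Acvr1c, which encodes ALK7, a type I receptor of the TGF-β family closely related to ALK5, was not well above background on any control array and had levels of -0.76, -2.08 and -0.36 in OCKS-treated MEFs. It was at least 112-fold higher (adjusted p = 3.4e-06, limma). Acvr1b, which encodes ALK4, another relative, rose by 2.01. The gene of ALK5 itself, Tgfbr1, had levels of 0.65, 0.44 and 0.56 in control MEFs and 0.49, 0.64 and 0.42 after treatment and did not pass. Ezh1, 1 of the H3K27 methyltransferases, rose by 1.41, whereas the difference of its paralog Ezh2 was -0.44. Ahcy, the enzyme that DZNep binds, fell by 1.18 and did not pass with the spike-in scaling. The H3K4 demethylase gene Kdm1a (-0.46), the H3K9 methyltransferase gene Ehmt2 (0.15) and the deacetylase genes Hdac1 (-0.12) and Hdac2 (-0.63) did not pass.

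Chromatin genes at large moved little. Of 23 histone acetyltransferase and deacetylase genes tested, Sirt3, a mitochondrial deacylase gene, rose by 1.19 and the other 22 did not pass, with 2 risen under the spike-in scaling. Of 30 histone methyltransferase and demethylase genes, the H3K9 and H3K27 demethylase gene Kdm7a rose by 2.02, Kdm6b fell by 1.003, a call lost in 10 alternatives, among them the spike-in scaling and the fits without MEF replicate 1 or OCKS replicate 1, and 28 did not pass. Among 25 genes of linker and variant histones and the nuclear lamina, the nucleosome-binding gene Hmgn3 rose by 2.11, and Lmna, which encodes lamins A and C, was 1 of 3 that fell (by 1.86). The linker histone gene H1f10 fell by 1.79.

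The rises named here, among genes well above background on all 6 arrays and leaving aside those already known from earlier results of these data, were mostly of secreted proteins. Mup19, a major urinary protein gene of liver and glands, had levels of -5.54, -4.88 and -4.81 in control MEFs and 3.101, 3.35 and 4.22 in OCKS-treated MEFs (difference 8.64, SE 0.35, adjusted p = 4.75e-08, limma). Probes of the Mup family may read more than 1 member. Cldn11, a tight junction gene of myelin and Sertoli cells, went from -6.27, -6.07 and -5.90 to 1.65, 1.81 and 2.39. Slpi, a protease inhibitor of mucous secretions, went from -1.81, -1.48 and -1.02 to 6.37, 6.16 and 6.32. That all treated arrays lie above all control arrays was a condition for naming a gene here, not an outcome. Wfdc21 (difference 7.99), of the same inhibitor family as Slpi, and Acod1 (7.68), the enzyme that makes itaconate in activated macrophages, rose as well. Gpd1 (7.64) makes the glycerol phosphate of triglycerides, and Ccl11 (7.58) is the eosinophil chemokine eotaxin. The ferritin receptor gene Scara5 (7.29), the interferon-induced Oas2 (7.12) and Ifi209 (6.88), the extracellular chaperone gene Clu (6.93), the adipokine gene Retn (6.87) and the protease gene Adamts15 (7.32) completed the group with 2 complement genes. Of these, C3, the central complement protein, had levels of -1.78, -1.39 and -1.50 in control MEFs and 5.24, 5.33 and 5.17 in OCKS-treated MEFs (difference 6.80, SE 0.14, adjusted p = 2.15e-09, limma), and Cfb, its activating protease, rose by 7.07.

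The falls chosen in the same way were of matrix and contractile genes, of leukocyte genes and of a few genes of other lineages. Acta1, skeletal muscle actin, had levels of 3.98, 3.88 and 3.84 in control MEFs and -1.88, -3.45 and -3.10 after treatment. It fell by 6.71 (SE 0.33, adjusted p = 1.53e-07, limma). The Wnt-induced matrix gene Ccn4 (-6.64), the collagen receptor gene Itga11 (-6.38), the chemokine gene Cxcl14 (-6.72) and the matrix gene Ccdc80 (-5.47) fell as well. Prl3a1, of the placental prolactin family, fell by 6.92, from levels of 0.84, 0.47 and -0.20 to -6.35, -6.18 and -7.12. The synaptic adhesion gene Lrrc4c (-6.50), the gap junction gene Gjb2 (-5.55) and the cornified envelope gene Lce1i (-6.02) fell too. The remaining falls, of C1qc (-6.62), Lyz1 (-6.15), Ctss (-5.89) and Ms4a7 (-5.75), are of genes known from macrophages. C1qc is itself 1 of the 22 leukocyte markers, so its fall is part of the summed leukocyte signal given above. The part of that signal in the other falls was not tested. Of the 22 leukocyte markers tested 19 fell, with a median difference of -3.24 against -0.189 over all genes, and 15 fell with the spike-in scaling.

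**Figure D2:**
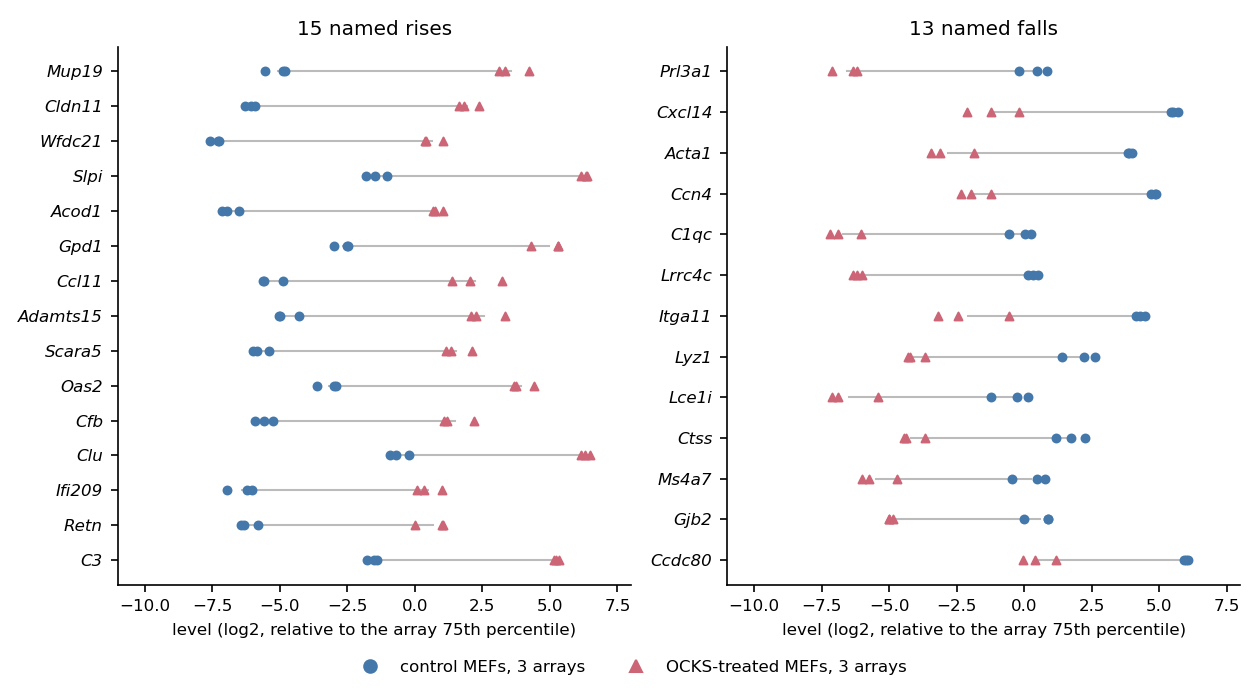
Levels on each of 3 control arrays (circles) and 3 OCKS arrays (triangles) for 15 risen genes (left) and 13 fallen genes (right), log2 relative to the array's 75th percentile, with a line between the group means. Only genes whose 2 groups lie apart were chosen, such as C3 with -1.78 to -1.39 in control MEFs and 5.17 to 5.33 after treatment.

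Some genes went from below background in 1 group to well above it in the other. There were 144 switched on (0.892% of genes tested), well above background on all OCKS arrays and on none of the control arrays, and 198 switched off (1.23%), with 303 switched off when OCKS replicate 1 was left out. With normexp background correction and quantile normalization the counts were 72 and 44. For these the fold is a lower bound, the mean of the bright group against a floor, which on each dim array is the weakest spot called above background or, where higher, the probe itself. Genes above background on only some arrays of a group are given below as plain differences, such as Sp7, Hif3a, Krt23, Nod2, Fmo2 and Laptm5. Their dim arrays lie near the floor, so the size of these differences is uncertain. Tex19.1, a gene of germ cells and placenta that holds transposons in check, had levels of 1.28, 1.53 and 0.94 in OCKS-treated MEFs (at least 514-fold higher, adjusted p = 1.06e-08, limma). Mup20 (at least 674-fold) and Mup3 (at least 239-fold) were switched on beside Mup19. Ces1f, a liver carboxylesterase gene (at least 200-fold), Saa2, an acute-phase gene (at least 109-fold), and Fa2h, which makes hydroxylated sphingolipids (at least 119-fold), followed. Nppc, the hormone gene of C-type natriuretic peptide, had levels of 0.45, -1.99 and 0.42 (at least 192-fold). The alanine and serine transporter gene Slc7a10 was at least 129-fold higher and the epithelial surface gene Tmigd1 at least 106-fold higher.

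The genes switched off had other roles. Ptprb, a receptor phosphatase of vessel walls, had levels of -0.27, -0.15 and -0.74 in control MEFs and was at least 126-fold lower in OCKS-treated MEFs (adjusted p = 3.65e-06, limma). Cx3cr1 (at least 108-fold), Myo1f (at least 69.1-fold) and Cd300c2 (at least 49-fold) are known from leukocytes, and Cx3cr1 is itself on the list of leukocyte markers. The part of the leukocyte markers in these falls was not tested. Tph1 makes serotonin (at least 64.7-fold lower), and Htr7 is a serotonin receptor gene (at least 46-fold). Heyl, a repressor induced by Notch (at least 54.5-fold), Gabrb1, a GABA receptor subunit gene (at least 48-fold), the cornified envelope gene Lce1h (at least 34.7-fold) and the guidance gene Sema5b (at least 26.8-fold) were also switched off.

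**Figure D3:**
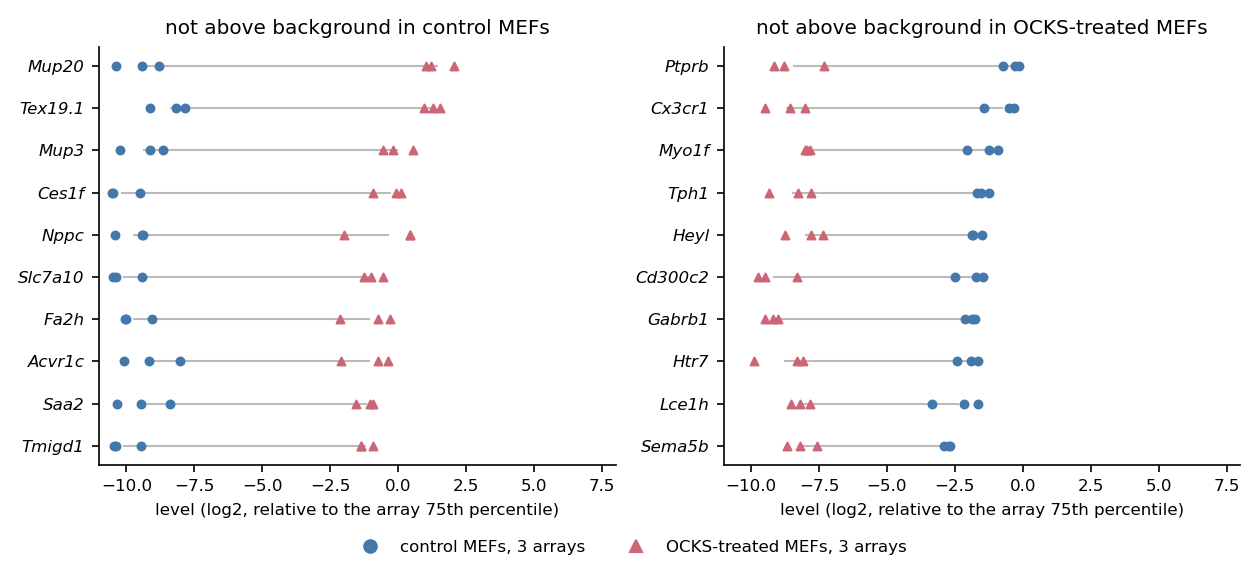
Levels on 3 control arrays (circles) and 3 OCKS arrays (triangles) of 10 genes not well above background on any control array (left) and 10 not well above background on any OCKS array (right), log2 relative to the array's 75th percentile. Points of the dim group lie near the floor of the array and have no order, whereas the bright group reaches 2.06 for Mup20 and -0.15 for Ptprb.

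Promoters of changed genes differed in their content of CpG, the dinucleotide that Dnmt1 keeps methylated. CpG-rich promoters are as a rule unmethylated in all tissues, and CpG-poor ones mostly belong to genes of single tissues. In RefSeq promoters of GRCm38.p6 that run from 250 bases before to 50 bases after the start, taken for genes with exactly 1 such promoter, the median number of CpG was 18 over 10379 genes tested. It was 12 over 1096 risen genes, 15 over 1373 fallen genes and 19 over 7910 genes that did not pass. For 97 switched-on genes it was 6 and for 128 switched-off genes 5, while 1460 genes above background on none of the 6 arrays had a median of 2. Both ends of the switch thus lay between the genes never detected and the rest, and G+C ran the same way, with medians of 59.3% over all genes tested, 49.7% over switched-on, 51% over switched-off and 44% over undetected genes. CpG content, G+C and breadth of expression move together, and their parts were not told apart. These are descriptions, with no test.

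**Figure D4:**
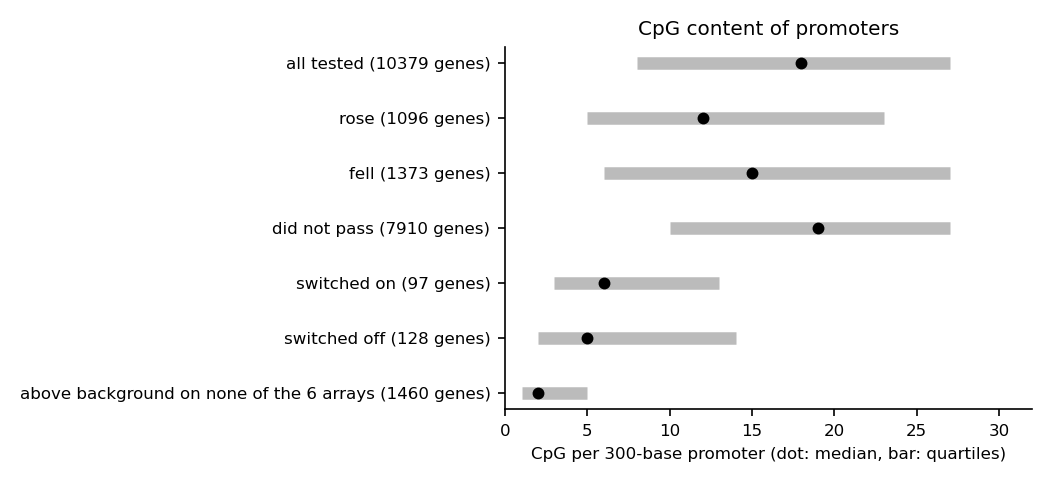
Number of CpG in the 300-base promoter by set of genes, as the median (dot) and the lower and upper quartile (bar). The medians of 6 for switched-on and 5 for switched-off genes lie under that of all genes tested (18) and above that of genes never above background (2).

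Switched-on genes with few and with many CpG are shown by 2 promoters each, with CpG in capitals. Mup3 lies at chr4:62087268-62087567 on the minus strand with 2 CpG, and Alb, which encodes albumin, at chr5:90460620-90460919 on the plus strand with 3. Nppc at chr1:86670524-86670823 on the minus strand has 29 CpG, and Slc7a10 at chr7:35186135-35186434 on the plus strand has 24. All are GRCm38.p6, read 5′ to 3′ from RefSeq.
Mup3: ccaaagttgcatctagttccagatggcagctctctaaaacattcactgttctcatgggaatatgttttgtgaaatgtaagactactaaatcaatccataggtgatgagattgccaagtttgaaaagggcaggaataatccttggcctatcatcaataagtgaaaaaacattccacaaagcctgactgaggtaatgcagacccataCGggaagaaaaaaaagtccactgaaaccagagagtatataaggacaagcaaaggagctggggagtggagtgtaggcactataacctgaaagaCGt
Alb: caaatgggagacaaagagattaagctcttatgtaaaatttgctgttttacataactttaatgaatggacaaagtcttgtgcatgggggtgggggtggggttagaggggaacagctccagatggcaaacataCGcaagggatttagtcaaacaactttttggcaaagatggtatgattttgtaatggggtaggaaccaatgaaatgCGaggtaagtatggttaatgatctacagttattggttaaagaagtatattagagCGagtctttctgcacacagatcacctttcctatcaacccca
Nppc: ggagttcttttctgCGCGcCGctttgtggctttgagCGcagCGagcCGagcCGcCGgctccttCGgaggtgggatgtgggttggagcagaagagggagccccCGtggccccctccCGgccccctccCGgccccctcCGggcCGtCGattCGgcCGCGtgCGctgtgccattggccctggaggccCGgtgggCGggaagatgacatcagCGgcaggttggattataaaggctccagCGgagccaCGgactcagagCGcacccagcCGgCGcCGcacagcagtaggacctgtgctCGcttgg
Slc7a10: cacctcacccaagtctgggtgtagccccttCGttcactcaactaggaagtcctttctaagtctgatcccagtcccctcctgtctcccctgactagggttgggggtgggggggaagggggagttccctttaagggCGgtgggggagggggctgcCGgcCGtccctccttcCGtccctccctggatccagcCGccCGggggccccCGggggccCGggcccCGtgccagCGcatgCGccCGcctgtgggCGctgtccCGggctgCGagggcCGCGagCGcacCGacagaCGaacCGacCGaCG

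Short motifs, searched on both strands, were spread unevenly over the same promoters. The interferon-stimulated response element core was in 3.22% of promoters tested and in 6.11% of those of risen genes. It was also in 6.19% of switched-on, 6.25% of switched-off and 4.18% of undetected genes. TGANTCA, a loose form of the AP-1 motif with any base in the middle, was in 5.67% of all and 7.57% of risen genes. It was in 12.4% of switched-on and 10.9% of switched-off genes, but also in 12.1% of undetected genes. GGGCGG, a G-rich box, was in 57.8% of all promoters and in 24.7% of switched-on ones. The cyclic AMP response element TGACGTCA was in 2.88% of all, 1.09% of risen, 2.11% of fallen and 0.959% of undetected genes. A match says only that the letters are there.

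Liver genes had the highest median difference of the 59 gene lists. Of 35 tested, 21 rose and 2 fell, the falls not passing with the spike-in scaling and numbering 4 without OCKS replicate 1 and 1 without MEF replicate 2, OCKS replicate 2 or OCKS replicate 3, with a median difference of 2.70 against -0.189 over all genes. Haptoglobin (Hp), which binds free haemoglobin, had levels from -0.32 to 0.10 in control MEFs and of 6.26, 6.86 and 6.59 in OCKS-treated MEFs (difference 6.64, SE 0.21, adjusted p = 9.66e-09, limma). Kng1, the kininogen precursor of bradykinin, went from -3.18, -3.70 and -2.87 to 2.49, 2.71 and 2.60. Ahsg, a serum inhibitor of calcification, rose by 4.51, Orm1, an acute-phase carrier, by 4.99, the retinol carrier gene Rbp4 by 4.19 and the haem carrier gene Hpx by 3.39. Orm1 and its relatives are near copies that 1 probe may read together. Albumin (Alb) was switched on at a low level (at least 10.6-fold). The liver transcription factor gene Foxa2 had levels of -7.51, -7.18 and -7.48 in control MEFs and -4.80, -6.41 and -5.43 after treatment (difference 1.84, adjusted p = 0.00069, limma). The promoters of the list had a median of 3 CpG.

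**Figure D5:**
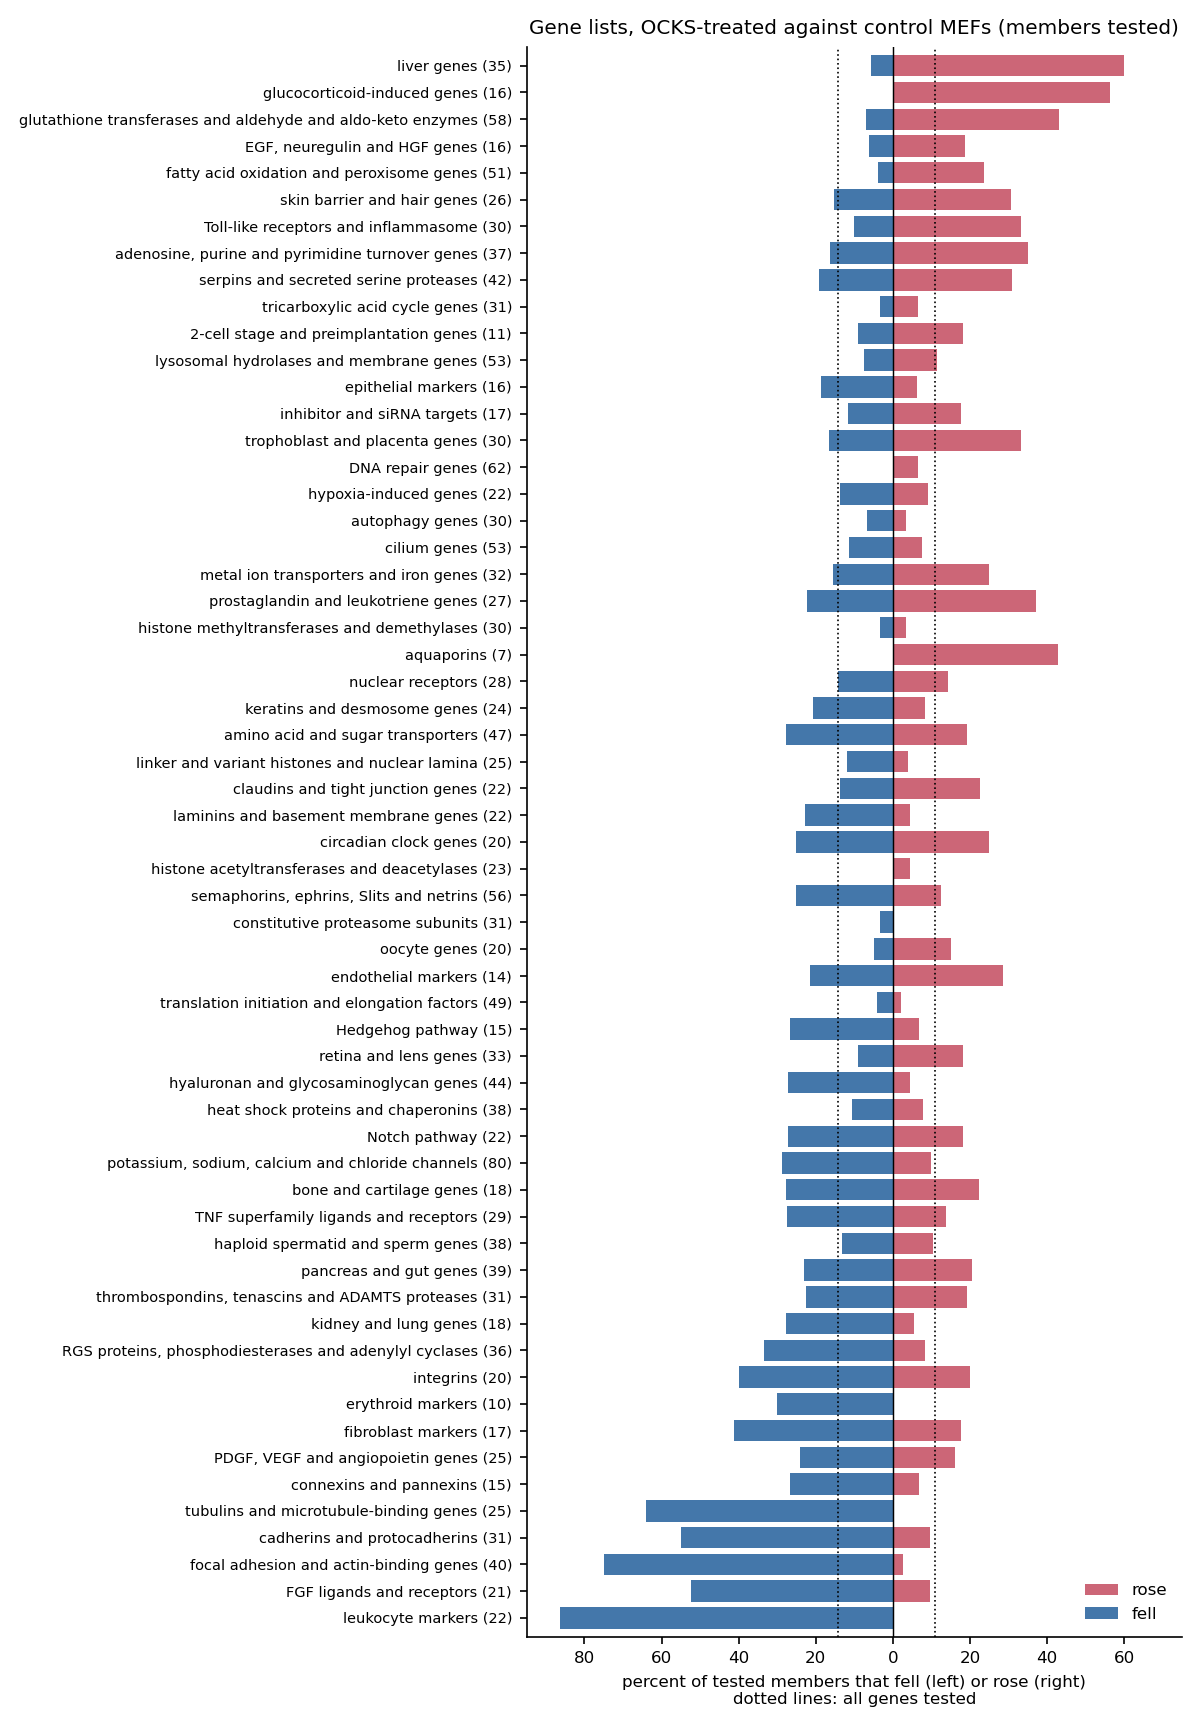
Percent of the tested members of each of 59 gene lists that rose (right) or fell (left) in OCKS-treated MEFs, ordered by the median difference, with the number tested in parentheses. Dotted lines mark the shares over all genes tested, 10.9% risen and 14.2% fallen, and liver genes and leukocyte markers stand at the ends.

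Secreted proteases and their inhibitors also moved. Of 42 genes of serpins and secreted serine proteases 13 rose and 8 fell. Serpina3m, an inhibitor of the acute-phase response, rose by 6.80 and its neighbour Serpina3n by 5.06 (from levels of -1.38, -1.39 and -0.16 to 3.47, 4.88 and 3.91). This family is multiplied in mice, so that a probe may read several members. The cysteine protease inhibitor gene Cst6 rose by 4.98. The thrombin receptor gene F2r had levels of 5.14, 5.27 and 5.05 in control MEFs and 1.87, 2.06 and 1.87 in OCKS-treated MEFs (difference -3.22, SE 0.09, adjusted p = 7.1e-09, limma), and the coagulation inhibitor gene Tfpi2 fell by 3.77.

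Enzymes that conjugate or oxidize foreign and endogenous compounds rose widely. The list held glutathione transferases, aldehyde and aldo-keto enzymes and others such as Ces1f, Fmo1 and Fmo2. Of its 58 genes tested, 25 rose and 4 fell. The fallen numbered 1 to 3 when single arrays were left out (1 without MEF replicate 2, MEF replicate 3 or OCKS replicate 3) and 2 with the spike-in scaling. Ugt1a6a, which attaches glucuronic acid to phenols, had levels of 0.53, 0.44 and 1.05 in control MEFs and 5.09, 5.10 and 5.18 in OCKS-treated MEFs (difference 4.45, SE 0.16). Fmo2, an oxygenase of the lung, rose by 5.99, Aldh1a7 by 5.63, the membrane glutathione transferase gene Mgst2 by 4.37 and Gsta2, 1 of several near copies, by 4.05. Ces1d was switched on beside Ces1f (at least 13.9-fold). Aldh1l2, of mitochondrial folate metabolism, fell by 4.57.

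Genes that glucocorticoids are known to induce went the same way. Of 16 tested 9 rose and 7 did not pass, with a median difference of 1.97. Fkbp5, a co-chaperone of the glucocorticoid receptor and a standard readout of its activity, had levels of -0.30, -0.55 and -0.80 in control MEFs and 3.45, 3.66 and 3.54 in OCKS-treated MEFs (difference 4.10, SE 0.13, adjusted p = 1.11e-08, limma). Zbtb16, a transcription factor gene, rose by 6.66, Hsd11b1, which regenerates active glucocorticoid, by 4.91, Pdk4, which holds back glucose oxidation, by 4.00, Glul, glutamine synthetase, by 3.74 and Tsc22d3, the leucine zipper GILZ, by 1.37. The receptor gene Nr3c1 had levels of 2.38, 2.34 and 2.36 in control MEFs and 2.63, 2.90 and 2.71 after treatment, a difference of 0.38 that is under 2-fold. No glucocorticoid is listed among the agents.

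In fuel metabolism, 12 of 51 genes of fatty acid oxidation and peroxisomes rose and 2 fell, with 18 risen and 1 fallen under the spike-in scaling. The peroxisome division gene Pex11a had levels of -0.69, -0.85 and -0.72 in control MEFs and 2.81, 2.65 and 3.01 in OCKS-treated MEFs (difference 3.58, SE 0.11). Abcd2, a peroxisomal fatty acid importer, was switched on (at least 23.1-fold). Acot1 rose by 3.65 and Cpt2 by 1.48, whereas the heart fatty acid carrier gene Fabp3 fell by 3.18. Of 31 genes of the tricarboxylic acid cycle and its side paths, Pck1 (3.72) and Pcx (3.14), which feed gluconeogenesis, rose, 1 fell, or 2 without OCKS replicate 1, and 28 did not pass.

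Turnover of purines and pyrimidines had 13 risen and 6 fallen genes of 37 tested, with 2 fallen under the spike-in scaling. Xdh, which makes uric acid, had levels of -3.48, -3.37 and -3.03 in control MEFs and 2.67, 3.04 and 2.65 in OCKS-treated MEFs (difference 6.08, SE 0.15, adjusted p = 3.14e-09, limma). Enpp2, autotaxin, rose by 5.18, the mitochondrial nucleotide kinase gene Cmpk2 by 5.15 and Cda, which deaminates cytidine, by 4.21. Of the receptors, Adora1 for adenosine rose by 4.56 and P2ry1 for ADP fell by 2.83.

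Transporters and channels split. Of 32 metal ion transport and iron genes 8 rose and 5 fell, with 3 fallen under the spike-in scaling. The ferroxidase gene Cp had levels of -3.86, -4.01 and -3.64 in control MEFs and 2.96, 2.86 and 2.84 after treatment (difference 6.72, SE 0.16), the transferrin gene Trf rose by 3.50 and the iron exporter gene Slc40a1 by 1.73, while the transferrin receptor gene Tfrc fell by 1.45 and did not pass with the spike-in scaling. Of 47 amino acid and sugar transporters 9 rose and 13 fell, and 8 fell with the spike-in scaling. The insulin-responsive glucose transporter gene Slc2a4 rose by 3.26 and the leucine transporter gene Slc43a2 by 3.74, whereas Slc7a5, the large neutral amino acid exchanger, fell by 1.77 and Slc6a17 by 4.46. Of 7 aquaporins 3 rose, among them the glycerol channel gene Aqp3 (5.80), and 0 fell, or 1 without OS replicate 1. Of 80 ion channel genes 8 rose and 23 fell, with 15 fallen when MEF replicate 2 was left out and 8 with the spike-in scaling. The potassium channel subunit gene Kcnmb1 of smooth muscle was switched off (at least 21.9-fold), Kcnmb4 fell by 4.55 and Kcnk6 by 4.16, and Clic6 rose by 3.27.

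Sensors of bacterial products and the inflammasome, the complex that activates inflammatory caspases, had 10 risen and 3 fallen genes of 30 tested, and 1 fallen with the spike-in scaling. Casp1, the inflammasome caspase, had levels of -2.82, -3.29 and -2.68 in control MEFs and 2.56, 2.84 and 2.53 in OCKS-treated MEFs (difference 5.58, SE 0.43, adjusted p = 2.26e-06, limma). Lbp, which carries bacterial lipopolysaccharide, rose by 6.49, Nod2, which senses peptidoglycan inside the cell, by 5.51, Casp4, which binds lipopolysaccharide, by 4.40, Nlrc5, which drives MHC class I genes, by 4.02 and Tlr2 by 2.18. The RNA sensor gene Tlr7, which macrophages use, fell by 1.13 and did not pass with the spike-in scaling. Of the leukocyte markers 19 of 22 fell, and their part in these counts was not tested.

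In other inflammatory families both directions occurred. Of 29 TNF ligands and receptors 4 rose and 8 fell, with 2 risen without MEF replicate 3 or OCKS replicate 3, and 5 fallen with the spike-in scaling. The osteoclast factor gene Tnfsf11 (RANKL) had levels of -2.21, -2.52 and -2.57 in control MEFs and -1.10, 0.26 and -0.24 in OCKS-treated MEFs (difference 2.08). Its decoy receptor gene Tnfrsf11b, osteoprotegerin, went the other way, from 1.47, 1.56 and 1.42 to -3.05, -1.79 and -2.75 (difference -4.01, SE 0.31). The B cell survival factor gene Tnfsf13b rose by 2.95 and the TWEAK receptor gene Tnfrsf12a fell by 2.74. Of 27 prostaglandin and leukotriene genes 10 rose and 6 fell, with 3 fallen under the spike-in scaling. The receptors Ptger2 (4.64) and Ptgfr (4.17) and the prostaglandin E synthase gene Ptges (1.83, from 3.30, 3.31 and 3.28 to 5.13, 5.08 and 5.17) rose. The thromboxane and prostaglandin D synthase genes Tbxas1 (at least 20.3-fold) and Hpgds (at least 4.99-fold), which macrophages and mast cells use, were switched off, beside the fall of the leukocyte markers, whose part was not tested.

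Notch signals from a ligand on 1 cell to a receptor on the next, and its readout is a family of repressors. Of 22 genes tested 4 rose and 6 fell, with 6 risen and 4 fallen under the spike-in scaling. The repressors fell together. Hes1 had levels of -0.60, -1.002 and -0.93 in control MEFs and -5.46, -5.61 and -4.85 in OCKS-treated MEFs (difference -4.46, SE 0.20, adjusted p = 9.17e-08, limma), Hey1 fell by 4.57, and Hey2 (at least 8.15-fold) was switched off like Heyl. Of the ligands, Jag1 fell by 1.95, but it did not pass with the spike-in scaling, and Jag2 (3.44) and Dll1 (2.63) rose. Rbpj, the DNA-binding partner of Notch, rose by 1.57.

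The Hedgehog pathway had 1 risen gene, or 2 without OCKS replicate 2, and 4 fallen genes of 15. Its readout genes Gli1 (-4.29, -4.82 and -4.72 against -7.10, -6.76 and -6.54) and Hhip (difference -2.42, SE 0.10) fell, the readout and receptor gene Ptch1 had a difference of -0.77 and did not pass, and the co-receptor gene Gas1 rose by 2.32.

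Of 21 FGF ligands, receptors and partners tested 11 fell and 2 rose, with a median difference of -1.55. The ligand gene Fgf9 had levels of -1.32, -1.65 and -1.05 in control MEFs and -6.56, -7.06 and -6.80 in OCKS-treated MEFs (difference -5.47, SE 0.26, adjusted p = 1.31e-07, limma). Fgf5, which ends hair growth, fell by 3.42, while Fgf7, the keratinocyte growth factor that fibroblasts make, rose by 1.92, from 0.57, 0.79 and 0.43 to 2.54, 2.57 and 2.43.

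Of 25 PDGF, VEGF and angiopoietin genes 4 rose and 6 fell. The 2 PDGF receptors moved apart. Pdgfra had levels of 0.18, 0.12 and 0.41 in control MEFs and 2.70, 3.94 and 3.11 in OCKS-treated MEFs (difference 3.01), and Pdgfrb of 3.11, 3.15 and 3.23 and of -0.08, 1.68 and 0.59 (difference -2.43), the latter a call lost in 5 of 27 alternatives. Angptl4, an inhibitor of lipoprotein lipase, rose by 5.49 and the vessel-destabilizing ligand gene Angpt2 by 3.70. Among 16 genes of EGF, neuregulin and HGF signalling 3 rose, or 5 without OCKS replicate 2, and 1 fell. The ligand gene Hbegf fell by 4.29 and the EGF receptor inhibitor gene Errfi1 rose by 2.77.

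Genes that set cyclic nucleotide and G protein signals fell in 12 of 36 cases, or 5 with the spike-in scaling, and 3 rose. Rgs2, which shortens signals of Gq-coupled receptors, rose by 4.95 (from levels between -0.03 and 0.33 to 5.22, 4.81 and 5.21), and its relative Rgs4 fell by 3.14 (from 0.65, 0.47 and 0.07 to -2.71, -2.80 and -2.73). Of 28 nuclear receptors 4 rose and 4 fell, or 2 with the spike-in scaling. The oxysterol receptor gene Nr1h3 rose by 3.65, and the progesterone receptor gene Pgr was switched off (at least 2.78-fold). The circadian clock had 5 risen and 5 fallen genes of 20, and 3 fallen with the spike-in scaling. Per2 rose by 1.77 and the repressor gene Nr1d1 fell by 1.43, while Arntl, the core activator, had a difference of -0.25 and did not pass. Of 22 genes induced by hypoxia 2 rose and 3 fell, with 4 risen and 2 fallen under the spike-in scaling. The nuclear receptor and hypoxia counts lie near the shares over all genes tested, 10.9% risen and 14.2% fallen. Hif3a rose by 7.16 and the lipoprotein receptor gene Vldlr by 2.50, and Ankrd37 fell by 2.30.

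Most genes of the actin cytoskeleton and its anchors were lower after treatment. Of 40 focal adhesion and actin-binding genes 30 fell and 1 rose, with a median difference of -1.52, and 19 fell with the spike-in scaling. Myl9, the regulatory light chain of smooth muscle myosin, had levels of 6.91, 6.55 and 6.61 in control MEFs and 2.18, 0.62 and 1.01 in OCKS-treated MEFs (difference -5.42, SE 0.34, adjusted p = 6.43e-07, limma). Fhl1 fell by 3.64, the actin crosslinker genes Actn1 by 3.21 and Flna by 2.18, and Vcl, vinculin, which ties actin to integrins, by 1.83, from -1.51, -1.31 and -1.41 to -2.88, -3.54 and -3.30. The exception was Ezr, ezrin, which links actin to the membrane of epithelial microvilli (difference 1.24), and without OCKS replicate 3 the count of risen genes was 0.

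Many such genes are known targets of serum response factor, which binds the CArG box. The box, 10 bases long, was in 1.52% of the promoters of all genes tested, in 1.55% of risen genes and in 1.89% of fallen genes, 26 in number. Among these 26 were Acta1, Myl9, Vcl, Cnn2 (-2.81), Actc1 (-2.62), Fermt2 (-1.63), Lima1 (-1.58) and Myom1 (-5.81). These are examples of muscle, actin and adhesion genes, and the 26 also held others, such as Ppbp, Gpr183, Olfr450 and Krtap4-8. The risen genes with the box numbered 17, among them Cyp1a1, Rhox2c and Mesp1. Both shares lie near that of all genes tested, and the activity of serum response factor was not tested. In the focal adhesion list 3 of 25 promoters had the box. The promoters of 3 are shown with the box in capitals (GRCm38.p6, RefSeq). In Acta1 (chr8:123894726-123895025, minus strand) it begins 73 bases before the start, in Myl9 (chr2:156775214-156775513, plus strand) 161 and in Vcl (chr14:20929148-20929447, plus strand) 227.
Acta1: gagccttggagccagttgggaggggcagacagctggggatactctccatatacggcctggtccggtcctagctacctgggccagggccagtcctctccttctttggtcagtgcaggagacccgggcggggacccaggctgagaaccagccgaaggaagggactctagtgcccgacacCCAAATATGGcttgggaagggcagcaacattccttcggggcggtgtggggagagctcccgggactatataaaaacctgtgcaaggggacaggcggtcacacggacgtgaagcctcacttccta
Myl9: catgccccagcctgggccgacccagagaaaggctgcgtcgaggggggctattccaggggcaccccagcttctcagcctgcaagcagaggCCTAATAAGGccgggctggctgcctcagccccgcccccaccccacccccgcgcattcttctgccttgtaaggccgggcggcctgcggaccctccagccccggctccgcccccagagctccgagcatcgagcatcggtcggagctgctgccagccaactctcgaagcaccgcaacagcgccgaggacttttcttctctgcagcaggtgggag
Vcl: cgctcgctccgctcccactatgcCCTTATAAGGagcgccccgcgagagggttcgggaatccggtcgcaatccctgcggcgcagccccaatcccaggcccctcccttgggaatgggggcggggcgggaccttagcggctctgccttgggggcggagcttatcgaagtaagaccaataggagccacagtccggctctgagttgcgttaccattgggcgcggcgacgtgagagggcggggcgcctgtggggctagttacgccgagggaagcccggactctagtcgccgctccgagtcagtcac

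Microtubule genes fell as well, 16 of 25 tested, or 7 with the spike-in scaling, with a median difference of -1.33. Tubb2b, a neuronal β-tubulin gene, had levels of 3.99, 4.09 and 4.10 in control MEFs and 0.38, -0.90 and -0.09 in OCKS-treated MEFs (difference -4.26). Stmn4, of the stathmin family of tubulin-binding proteins, fell by 4.66 and Tuba1a by 1.72.

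Cell adhesion followed in part. Of 31 cadherins and protocadherins 17 fell and 3 rose, with 11 fallen when MEF replicate 2 was left out and 10 with the spike-in scaling. Cdh15, of muscle precursors, had levels of -1.42, -1.48 and -1.24 in control MEFs and -4.98, -4.87 and -5.34 in OCKS-treated MEFs, Cdh3, P-cadherin, fell by 3.58, and Pcdh17 rose by 3.33. Of 20 integrins 8 fell and 4 rose, with 2 risen when any 1 of MEF replicates 1 to 3 or of OCKS replicates 1 and 3 was left out. Itgb1, the β chain of most matrix receptors, had levels of 3.62, 3.56 and 3.71 in control MEFs and 1.67, 1.42 and 1.41 after treatment (difference -2.13, SE 0.09), and Itgb7, known from lymphocytes, rose by 5.32. Of 22 claudin and tight junction genes 5 rose, or 3 without MEF replicate 2, and 3 fell, which did not pass with the spike-in scaling. Cldn15, a pore-forming claudin of the gut, rose by 4.25 beside Cldn11. Of 15 connexins and pannexins 4 fell, or 2 without MEF replicate 2 and 2 with the spike-in scaling, and 1 rose, or 0 without MEF replicate 2 or 3. Among 24 keratin and desmosome genes 2 rose and 5 fell, or 3 without MEF replicate 2, MEF replicate 3, OCKS replicate 2 or OCKS replicate 3 and 2 with the spike-in scaling. Krt23 rose by 7.14 and periplakin (Ppl) by 4.33, and the basal keratin gene Krt14 fell by 2.48.

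Guidance molecules steer axons and migrating cells. Of 56 genes of semaphorins, ephrins, Slits, netrins and their receptors 7 rose and 14 fell. Netrin 1 (Ntn1) had levels of -2.51, -2.33 and -2.36 in control MEFs and 0.71, 1.35 and 1.32 in OCKS-treated MEFs (difference 3.52, SE 0.16). The semaphorin receptor gene Plxnc1 fell by 5.08, from -0.34, -0.22 and -0.14 to -5.30, -5.03 and -5.61.

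In the extracellular matrix, 5 of 22 laminin and basement membrane genes fell and 1 rose, or 2 without OS replicate 3 and 2 with the spike-in scaling. Npnt, nephronectin, fell by 3.90, Fras1, which anchors epithelia, by 3.88 and Lama1 by 2.74, and Agrn rose by 1.64. Of 31 genes of thrombospondins, tenascins and ADAMTS proteases 6 rose and 7 fell, with 3 or 4 fallen when 1 of the MEF arrays, OCKS replicate 1 or 3 or PGC replicate 2 was left out. Thbs1, which activates latent TGF-β, had levels of 6.68, 6.37 and 6.33 in control MEFs and 2.71, 4.01 and 3.22 in OCKS-treated MEFs (difference -3.14), Tnxb rose by 4.54 and osteopontin (Spp1) by 3.13. Of 44 hyaluronan and glycosaminoglycan genes 12 fell, or 6 with the spike-in scaling, and 2 rose, or 1 without MEF replicate 2 or OCKS replicate 2 and 0 without MEF replicate 3 or OCKS replicate 3. Sulf1, which removes sulphates from heparan sulphate, fell by 3.78, from 3.03, 2.88 and 3.04 to -0.68, -0.79 and -0.93. Of 18 bone and cartilage genes 4 rose and 5 fell, with 3 fallen under the spike-in scaling. Sp7, the osteoblast factor osterix, fell by 3.78, with only 1 of 3 OCKS arrays well above background, and Omd, osteomodulin, by 4.29. Fibroblast markers were among the genes that changed, with 3 risen and 7 fallen of 17, or 3 or 4 fallen without any 1 of the MEF arrays, OCKS replicate 1 or OCKS replicate 3, and 4 with the spike-in scaling.

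Among genes of other lineages, those of trophoblast and placenta rose in 10 of 30 cases and fell in 5. Ascl2, a placental transcription factor gene, had levels of -3.99, -3.84 and -3.92 in control MEFs and -0.77, -1.30 and -0.68 in OCKS-treated MEFs (difference 3.001, SE 0.16). Plac8 rose by 5.38, Plac1 by 3.39, Prl2c5, of the prolactin family, by 4.31 and Rhox6, of a multiplied homeobox cluster, by 3.88, while the trophoblast stem cell factor gene Eomes fell by 3.09. Of 26 skin barrier and hair genes 8 rose and 4 fell, with 5 risen without MEF replicate 1, MEF replicate 3 or OCKS replicate 3, 2 fallen without MEF replicate 1, MEF replicate 2 or OCKS replicate 3, and 2 fallen with the spike-in scaling. Dmkn, dermokine, rose by 5.89, Sprr1b was switched on (at least 25.7-fold), and loricrin (Lor) fell by 5.08. Promoters of this list had a median of 3 CpG, and 7 of 20 held TGANTCA.

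Of 39 pancreas and gut genes 8 rose and 9 fell, with 5 fallen without MEF replicate 2, 4 without MEF replicate 3 and 3 with the spike-in scaling. The trypsin gene Prss2 fell by 3.48. Kidney and lung genes fell in 5 of 18 cases, or 2 with the spike-in scaling, and 1 rose. The endocytic receptor gene Lrp2 fell by 4.18 and Wt1 by 2.00. Of 33 retina and lens genes 6 rose and 3 fell, the falls not passing with the spike-in scaling, with Rom1 risen by 2.17.

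Genes of sperm, oocytes and the early embryo were in part undetected. Above background on none of the 6 arrays were 15 of 59 haploid spermatid and sperm genes with a probe, 18 of 49 oocyte genes and 10 of 27 genes of the 2-cell stage and preimplantation embryo. The shares that changed are to be read against 10.9% risen and 14.2% fallen over all genes tested. Of 38 haploid spermatid and sperm genes tested 4 rose and 5 fell, with 1 to 9 fallen when single arrays were left out (1 without OCKS replicate 3 and 9 without OCKS replicate 1). Spaca1 and Tuba3b were among the risen, the latter by 4.94. Of 20 oocyte genes 3 rose and 1 fell, or 2 without MEF replicate 1, MEF replicate 3 or OCKS replicate 1. Of 11 genes of the early embryo 2 rose and 1 fell, or 2 without OS replicate 1. The falls in these 3 lists did not pass with the spike-in scaling, and 5 oocyte genes rose under it. Arg2 was switched on (at least 19.5-fold). Cilium genes numbered 4 risen and 6 fallen of 53, with Spag16 switched on (at least 14.2-fold) and Rsph1, of the radial spoke, fallen by 3.31.

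Markers of other cell types that an embryo could bring to a fibroblast culture moved in both directions. Of 14 endothelial markers tested 4 rose and 3 fell, among the latter the switched-off Ptprb, with a median difference of -0.295. The summed signal of the 20 with a probe was 10.98 to 11.7 in control MEFs and 15.03 to 16.7 in OCKS-treated MEFs. Yet fewer were detected after treatment. Above background on all arrays of the group were 14 in control and 12 in OCKS-treated MEFs, and on none 1 and 5. Plvap rose by 4.54 and Sox7 by 4.25, and Vwf, the defining secreted protein of endothelium, fell by 2.01. Epithelial markers had 1 risen and 3 fallen of 16. There were 5 risen and 1 fallen without OCKS replicate 2, 3 risen without MEF replicate 3, 1 fallen without MEF replicate 2, and 3 risen and 0 fallen under the spike-in scaling. They had a summed signal of 3.85 to 5.06 in control MEFs and of 8.15, 1.35 and 4.01 in OCKS replicates 1, 2 and 3. The epithelial factor gene Grhl2 was switched on at a low level (at least 9.06-fold). Of 10 erythroid markers tested 3 fell, or 1 when any 1 of 8 arrays was left out, and their summed signal was 0.701 to 0.848 against 0.552 to 0.672, with 7 and 10 of 20 at background on all arrays of the group.

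In housekeeping systems most genes did not pass, as did 12093 of the 16151 genes tested. Among 31 proteasome subunits 1 fell and 30 did not pass, and among 49 translation factors 1 rose, or 2 without OCKS replicate 2, and 2 fell, or 4 without OCKS replicate 1 and 1 without MEF replicate 1. Among 62 DNA repair genes 4 rose, Xrcc3 of recombination (1.94), the damage sensor gene Ddb2 (1.66) and the glycosylase genes Neil2 (1.46) and Neil1 (1.13), and 58 did not pass. The promoters of the DNA repair list had a median of 22 CpG. Of 30 autophagy genes 1 rose and 2 fell. The rise, of Tecpr1, was lost in 18 of 27 alternatives, which include leaving out any 1 array other than OCKS replicate 2. With the spike-in scaling 2 other genes rose, and 1 fell without MEF replicate 2 or OCKS replicate 3. The falls of proteasome, translation and autophagy genes did not pass with the spike-in scaling. Lysosomal genes had 6 risen and 4 fallen of 53, or 10 risen with the spike-in scaling, with Mitf, a factor that drives lysosomal genes, risen by 1.99 and a difference of -4.61 for Laptm5, of leukocyte lysosomes. Of 38 heat shock proteins and chaperonins 3 rose and 4 fell, with 5 risen and 2 fallen under the spike-in scaling, Hspb7 risen by 2.35 and Hspb6 fallen by 2.15.

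Between OCKS-treated and OS-treated MEFs, 0 of 15699 genes tested passed the thresholds (0.0%, limma), and 0 with the unmoderated statistic, while 2663 (17%) had an unadjusted p under 0.05. With 3 arrays per group this does not show that the levels were alike. Without OS replicate 3, 5 genes were higher and 25 lower with OCKS. For 3790 genes changed with OCKS the median size of the difference between the 2 treatments was 0.225 on the log2 scale, and 191 (5.04%) differed by at least 2-fold, against 0.152 and 384 (2.47%) for 15553 genes tested in both. The changed genes were chosen on OCKS arrays that this difference also uses. The comparisons of each treatment with control MEFs share the 3 control arrays. Side by side, the differences with OCKS and OS were 8.64 and 7.62 for Mup19, 6.80 and 6.77 for C3, -5.42 and -5.78 for Myl9, 4.10 and 4.09 for Fkbp5 and -2.36 and -2.07 for Dnmt1. Others lay further apart, with 3.34 and 5.94 for the claudin gene Cldn3 and -6.97 and -4.12 for Tph1. Tph1 was at background on the OCKS arrays, so the size of its difference is uncertain. Pou5f1 stood apart. Its levels were -1.90, -0.98 and -0.98 in OS-treated MEFs against -5.83, -7.00 and -5.86 in OCKS-treated MEFs (difference -4.94, SE 0.39, adjusted p = 0.00268, limma), and this misses the threshold of 0.001. Myh1, a skeletal myosin gene, had a difference of -2.53 and the axon growth gene Gap43 of -1.82, and Cdhr1, a photoreceptor cadherin gene, was higher with OCKS by 1.31. Cldn3, Tph1 and these 4 genes were chosen after their values were seen.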

How the data were processed

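Agilent mouse arrays of 1 colour measured RNA (100 ng each) from 3 biological replicates per group. The authors deposited each array's scanner output, with spot intensity after background subtraction and not normalized between arrays, and a value table in log2 units, of which 10 of 12 columns followed their arrays. How MEFs were cultured in each group is not given in the sources used here.

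Of 39429 probes 92 with uneven spots were left out, and RefSeq accessions named 25983 probes of 19711 genes. The brightest probe stood for a gene. The log2 intensity minus the array's 75th percentile was fitted with limma 3.58.1 (R 4.3.3) over all 12 arrays, 4 groups, no covariates, and tested on simulated data. Tables used pandas 2.3.3 and numpy 2.4.6 in Python 3.11.15, plots matplotlib 3.10.9. Spots well above background made up 71.9% to 85.6% of 43020, with 0 saturated, and the 75th percentile signal was 1147 to 2925 over a background of 23 to 33.5. The number of arrays limits the precision.

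The 59 lists (2088 genes, 2035 with a probe, 1762 tested, 282 risen, 347 fallen) and the genes named were chosen with earlier results of these data known. Named were, among genes not covered by those results and without predicted-gene symbols, the 15 largest rises and 15 largest falls among genes above background on all 6 arrays with groups apart, the 10 switched on and 10 switched off with the largest bound, up to 4 per list and the targets. Other list members, and those compared with OS, are examples chosen after their values were seen. Not every gene picked this way is reported here. The alternatives included normexp (offset 50, on median spot signals), other scalings, filters, tests and thresholds, the value table, replicate and slide blocks and leaving out each array.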

Additional observations from a re-analysis of the deposited data

Results flagged for a closer look

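Probes that matched no gene name carried signal that the comparison of named genes does not use. Of 8327 such probes tested in OCKS-treated against control MEFs, 636 rose and 1056 fell at the same thresholds (limma). They are given as counts only.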

How the results depend on the processing

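Counts of risen genes ran from 1269 to 2133 over the alternatives, apart from the 4-fold threshold with 974, and from 1504 to 1783 with 1 array left out. Fallen genes numbered 1379 with normexp and quantile normalization, 998 with the spike-in scaling and 785 at 4-fold, and 1846 to 2291 with 1 array left out. Normexp gave 72 switched on and 44 switched off, against 127 to 159 and 142 to 303 with 1 array left out, the last without OCKS replicate 1. The filter on both groups could not give these counts. Higher with OCKS than OS were 1 at an adjusted p under 0.05 and 0 to 5 with 1 array left out. Lower were 2 with normexp, 1 with the spike-in scaling, 6 at an adjusted p under 0.05 and 0 to 25 with 1 array left out. The extremes of 5 and 25 came without OS replicate 3, and without PGC replicate 2 the count of lower genes was 1. Only the 2 groups gave 1269 risen and 1539 fallen. Thresholds and fewer arrays change counts by construction, and the cause of the other shifts was not tested.

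Same-numbered arrays of both groups deviated from their group means with correlations of -0.046, -0.127 and -0.027. These values show no pairing, but with 3 arrays per group and no shared slide they cannot exclude one. With the replicate block 1626 genes rose, 2101 fell, 128 were switched on and 168 off. With the slide as a random block (correlation 0.21) 1660 rose and 2077 fell. Since no slide held both groups, this block cannot tell an effect of the slide from that of the treatment. Of 6898 values of 258 named genes over the alternatives 0 reversed, and 383, in 76 genes, missed the thresholds.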
